A study of Homo sapiens with 20 samples.

Results

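Of the 10 libraries that each assay holds, 4 formed a set, called set A here, that crossed the 2 treatment groups: coculture 1, 2 and 5 and control 1. The other 6 libraries, coculture 3, 4 and 6 and control 2, 3 and 4, formed set B. Both sets carry the same library names in messenger RNA sequencing (RNA-seq) and in microRNA sequencing (miRNA-seq). The sets were chosen from measured values of these same libraries, so every difference between A and B, and between coculture 1 and 2 and the other cocultures, is given as a description without a test and supports nothing. All libraries were made from TPC-1, an established human papillary thyroid carcinoma cell line. The 6 coculture libraries came from TPC-1 grown beside PMN-MDSCs for 48 h, and the 4 control libraries from TPC-1 labelled untreated. PMN-MDSCs, or polymorphonuclear myeloid-derived suppressor cells, are immature cells of the neutrophil lineage that restrain T cells. The labels do not state how the 2 cell types were kept together or parted, where the PMN-MDSCs came from, or whether each library is a separate culture. The p-values below therefore measure only the spread between these libraries, which may be technical.

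As background, growth factor signalling through phosphoinositide 3-kinase and AKT keeps FOXO transcription factors out of the nucleus. When that signal wanes, FOXO factors raise genes of cell cycle exit and of signal feedback. The integrated stress response acts through the transcription factor ATF4, which raises amino acid synthesis genes when amino acids run short. Low oxygen stabilises hypoxia-inducible factors, which raise glycolytic enzymes and the microRNA miR-210. Growing cells, in turn, spend much of their transcription on ribosome assembly, and this spending falls when nutrients or growth signals are short.

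The set A libraries held more RNA of FOXO target and growth factor withdrawal genes (list median 0.82 on the log2 scale over 18 genes) and of integrins (0.49 over 13), and less of ribosome biogenesis genes (-0.50 over 29) and splicing factors (-0.31 over 31). In the cocultures these differences were widest in coculture 1 and 2. Coculture 5 stood at 0.15, 0.18, -0.09 and -0.16 for the same lists, near coculture 6 of set B at 0.03, 0.12, -0.05 and -0.08. Control 1 differed in the same directions, with medians of 0.40, 0.44, -0.38 and -0.12. Control 2 of set B stood at 0.28, 0.08, -0.10 and -0.01. Hypoxia and amino acid synthesis genes were higher in coculture 1 and 2 (0.71 over 32 genes and 0.54 over 35), but their medians within controls were -0.04 and 0.05.

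The RNA-seq libraries held 40237801 to 48197608 counts and the miRNA-seq libraries 3971608 to 5895539. After a filter on low counts 15629 genes and 797 miRNAs were compared. Protein-coding genes took 97.9% to 98.2% of the RNA-seq counts in set A and 97.9% to 98.1% in set B. Genes of the mitochondrial genome took 2.20% to 2.54% in set A and 2.39% to 2.81% in set B, so the ranges overlapped. Transcripts over 5000 bases took 22.5% to 27.4% in set A and 22.4% to 26.3% in set B. Within cocultures they took less in coculture 1 and 2 (23.5% and 22.5%) than in coculture 3 to 6 (23.9% to 25.6%). Within controls they took most in control 1 (27.4%), then 26.3%, 23.5% and 22.4% in control 2, 3 and 4. The part of this share in the differences was not tested. The thyroid factor PAX8, which is kept in TPC-1, stood at 496 to 769 CPM (the count scaled to library size), and fibronectin (FN1), abundant in this line, at 7288 to 11261 CPM.

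Coculture 1 stood apart in fibroblast genes, given below with the marker lists. Over the lists above, coculture 2 was alike in direction, with medians from set B of the cocultures of 1.27 for FOXO and growth factor withdrawal genes, 0.80 for hypoxia genes and -0.77 for ribosome biogenesis genes, against 1.31, 0.62 and -0.84 in coculture 1.

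Among the cocultures the sets did not fall together as whole transcriptomes. A chi-square distance per degree of freedom over genes was taken only between libraries of the same condition. By it, the library nearest to coculture 1 was coculture 2 (12.3). The same pairing joined coculture 3 with 4 (13.5), coculture 5 with 6 (12.6), control 1 with 2 (20.1) and control 3 with 4 (6.86). Coculture 5 of set A thus had a set B library as its nearest. Control 1 is the only control of set A, so its nearest library could only be of set B, and nothing is read from that. In miRNA-seq the nearest library to coculture 5 was coculture 1 (28.6), and the nearest to coculture 3 was coculture 6 (24.6). The miRNAs thus placed coculture 5 with coculture 1, and the messenger RNAs placed it with coculture 6. After each condition's mean was taken away from the RNA-seq values, the leading principal component held 47.2% of the variance. On it coculture 1 and 2 stood at -56.28 and -52.73, control 1 at -18.41, control 2 at 1.54, coculture 5 at 17.38 and coculture 6 at 20.39. Coculture 3 and 4 lay at the far end, at 36.69 and 34.55. In miRNA-seq, the leading component (32.3%) put control 1 at -10.49, coculture 2 at -6.61, coculture 1 at -6.48, control 2 at -3.91 and coculture 5 at -2.45, and all other libraries between 2.64 and 9.07.

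A scale that ran from 0% at the mean of coculture 3 and 4 to 100% at the mean of coculture 1 and 2 placed the other 6 libraries. It used 426 genes higher and 290 genes lower in coculture 1 and 2, chosen on those 4 libraries alone. Over the higher genes the median position was 42.1% for control 1, 27.3% for control 2, 24.8% for coculture 5, 20% for coculture 6, 14.4% for control 4 and 10.6% for control 3. Over the lower genes it was 41.3% for control 1, 30.4% for coculture 5, 26% for control 2, and 21.6% to 23.6% for the remaining 3. Each condition's mean was not taken away here, so the positions of controls also hold any difference between coculture and control. Controls and cocultures are therefore not ranked against each other. Among controls, control 1 was the nearest to coculture 1 and 2 in both directions. Coculture 5 lay close to coculture 6 of set B. The ends of the scale, coculture 1 and 2 and coculture 3 and 4, are set by its construction.

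**Figure D1:**
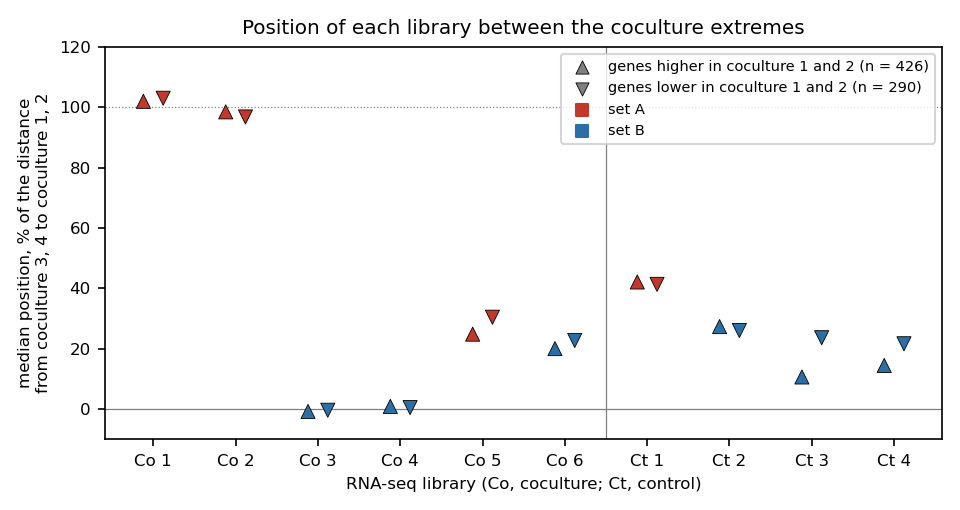
Median position of each library, in percent, on a scale from coculture 3 and 4 (0) to coculture 1 and 2 (100), over genes higher and genes lower in coculture 1 and 2, with points coloured by set. Control 1 stands at 42.1% over the higher genes, and coculture 5 at 24.8% stands next to coculture 6 at 20%.

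Genes were called apart when every set A library lay beyond every set B library, in the same direction, within cocultures (3 against 3) and within controls (1 against 3), with a fitted difference of at least 2-fold. By this rule 168 genes were higher in set A (1.07% of genes compared) and 81 were lower (0.518%). Nothing is read from these shares, because the libraries were chosen on these values. The 168 higher genes had a median log2 difference of 1.26, and their median level was 1.49 CPM against 16.9 CPM for all genes compared, so most were weakly expressed. Their median difference was 0.62 with coculture 5 as the only coculture of set A, 1.70 with coculture 1 and 2, and 0.81 with control 1. The 81 lower genes had a median of -1.29, a median level of 0.46 CPM, and only 28.4% of them code for protein, against 80.7% of all genes compared. In bulk RNA, fewer cells of a type and less RNA per cell cannot be told apart. The counts also turned on single libraries, with 694 genes in all without coculture 5 and 376 without coculture 6, against 249 with every library.

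**Figure D2:**
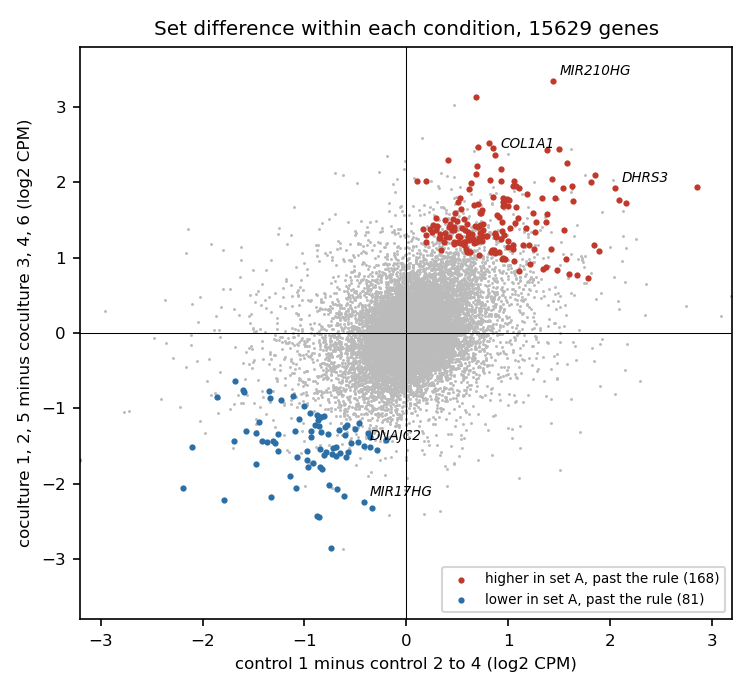
Log2 difference between set A and set B within cocultures (vertical axis, coculture 1, 2 and 5 minus 3, 4 and 6) against that within controls (horizontal axis, control 1 minus the mean of control 2 to 4), 1 point for each gene compared, with the called genes coloured and 2 genes outside the axes. DHRS3 lies far out on both axes, at 1.93 in cocultures and 2.05 in controls, while MIR17HG lies further out on the coculture axis (-2.25) than on the control axis (-0.42).

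DHRS3 encodes a retinal reductase that retinoic acid itself induces. Of the called genes with at least 5 CPM in set A, it had the widest gap, taken as the smaller of the differences within cocultures and within controls. It stood at 140, 158 and 39.8 CPM in coculture 1, 2 and 5, and at 22, 19.1 and 37.9 CPM in coculture 3, 4 and 6. In controls it was at 46 CPM in control 1 and at 40.2, 4.73 and 7.05 CPM in control 2, 3 and 4. Coculture 5 passed coculture 6, and control 1 passed control 2, by a small margin, so the groups only just did not overlap. The fitted difference was 1.88 ± 0.58 (log2, SE).

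NOX5, a calcium-activated NADPH oxidase that makes superoxide, stood at 2150, 2450 and 452 CPM in the set A cocultures and at 360, 285 and 395 CPM in the set B cocultures. Control 1 held 767 CPM, and control 2 to 4 held 393, 174 and 225 CPM. Here control 1 stood clear of the other controls, and coculture 5 again sat just above its set B counterparts. The difference was 2.05 ± 0.40 (log2, SE), against 2.62 ± 0.15 for coculture 1 and 2 alone.

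Single genes of the Hedgehog, Wnt and Notch pathways stood among the higher genes, and no list of Hedgehog genes was compared. PTCH1, the Hedgehog receptor and a target of its own pathway, was at 9.26, 8.82 and 1.95 CPM in coculture 1, 2 and 5, at 1.22, 1.83 and 0.939 CPM in coculture 3, 4 and 6, at 5 CPM in control 1, and at 1.78 to 1.85 CPM in the other controls. AXIN2, a scaffold of the β-catenin destruction complex and a Wnt target, stood at 7.68, 6.32 and 2.78 CPM against 1.57, 1.02 and 1.88 CPM in cocultures, and at 7.05 CPM against 3.58, 2.11 and 2.12 CPM in controls. NOTCH3, a Notch receptor, stood at 122, 110 and 63 CPM against 33.9, 30.6 and 49.3 CPM in cocultures, and at 91.3 CPM against 65.9, 39.9 and 41.3 CPM in controls. In NOTCH3 and AXIN2 control 1 lay near or at the level of coculture 1 and 2, whereas in PTCH1 it lay midway. Of 14 Wnt and Notch targets compared, these 2, AXIN2 and NOTCH3, were called higher and none lower. Over all genes compared 1.07% were called higher and 0.518% lower, and nothing is read from the count. The list median was 0.41 against 0.01 over all genes.

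Feedback regulators and transcription factors were also among the calls. SPRY1, a feedback inhibitor of receptor tyrosine kinase signalling, stood at 10.4, 10.2 and 3.71 CPM against 2.43, 1.12 and 1.97 CPM in cocultures, and at 8.27 CPM against 3.63, 5.7 and 4.88 CPM in controls. It was the 1 gene called of 23 in the MAPK output list, whose median was 0.34, against 1.07% of all genes called higher. The orphan nuclear receptor NR4A1 had a difference of 1.11 ± 0.29 and SMAD6, an inhibitor of bone morphogenetic protein signalling, of 1.24 ± 0.31 (log2, SE). The polyamine oxidase PAOX differed by 1.82 ± 0.36, the long noncoding RNA BLACAT1 by 1.53 ± 0.31, IRF2BPL by 1.30 ± 0.25, and KLHL14 by 1.16 ± 0.26. GATSL3, a cytosolic arginine sensor upstream of the growth kinase mTORC1, differed by 1.64 ± 0.36.

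**Figure D3:**
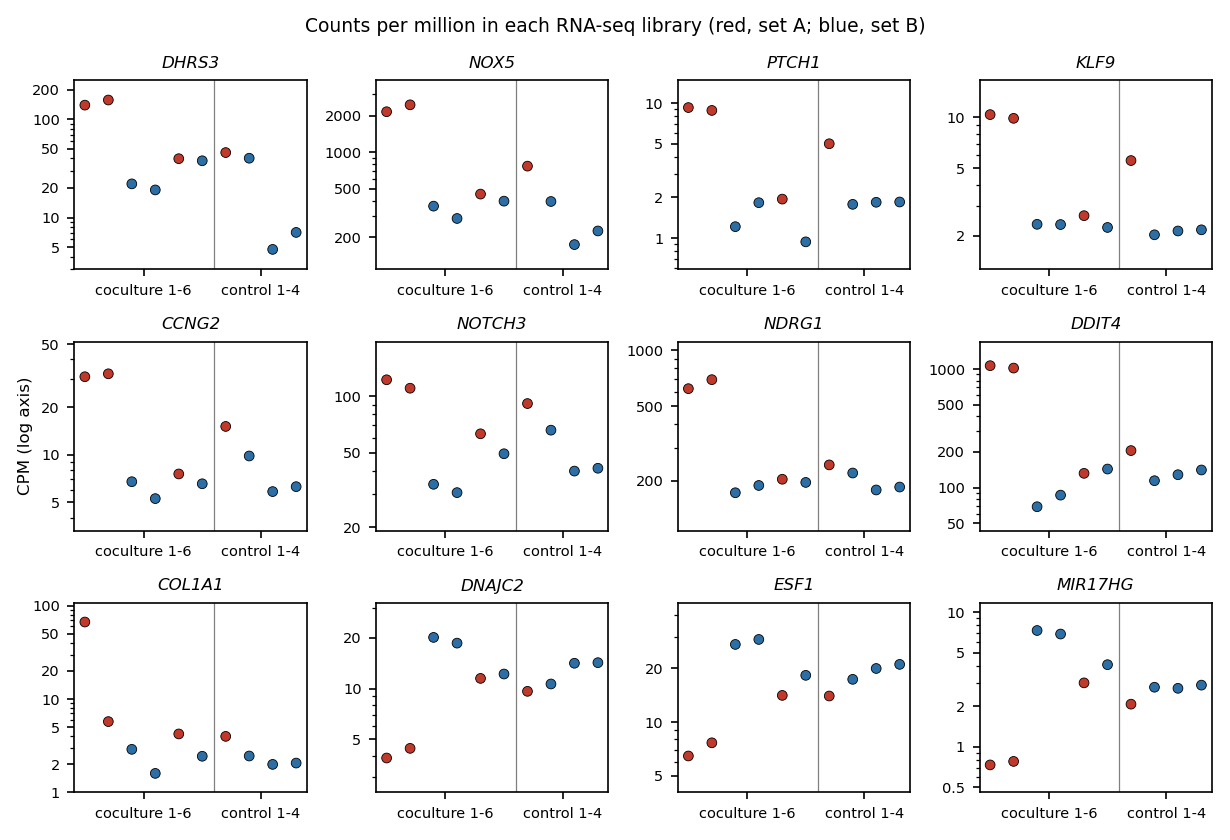
Level of selected genes in every library, in CPM on a log axis, by condition and set. Control 1 stands above the other controls in NOX5, PTCH1, KLF9 and CCNG2, and coculture 5 lies beside coculture 3, 4 and 6 in each of them.

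The list of FOXO targets and growth factor withdrawal genes had the highest median of the gene lists of RNA-seq other than marker lists, 0.82 between sets A and B over 18 genes. By the 2-set rule 3 of the 18 were higher and none lower, against 1.07% and 0.518% of all genes compared. A positive difference was seen in 17 of 18. Within controls the list's median was 0.40 in control 1, also with 17 of 18 positive, but control 2 of set B stood at 0.28, with control 3 and 4 at -0.16 and -0.09. CCNG2, an unconventional cyclin of cell cycle exit, stood at 31.1, 32.4 and 7.56 CPM in coculture 1, 2 and 5, at 6.75, 5.28 and 6.55 CPM in coculture 3, 4 and 6, at 15.1 CPM in control 1, and at 9.81, 5.85 and 6.28 CPM in the other controls. KLF9, a Krüppel-like repressor of proliferation, stood at 10.4, 9.85 and 2.63 CPM, at 2.34, 2.33 and 2.24 CPM, at 5.55 CPM, and at 2.03, 2.13 and 2.17 CPM in the same order. In both genes coculture 1 and 2 were far above the rest, control 1 was at an intermediate level, and coculture 5 was above its set B counterparts by a small margin. The third call was ERBB3, a receptor of the epidermal growth factor family, at 1.83, 1.6 and 0.606 CPM against 0.477, 0.380 and 0.506 CPM in cocultures.

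With coculture 1 and 2 set against coculture 3 to 6, a gene was called when both libraries lay beyond all 4 others with at least a 2-fold fitted difference. This held for 1068 genes that were higher (6.83%) and 628 that were lower (4.02%), and again nothing is read from the shares. Of the 18 FOXO and growth factor withdrawal genes 11 were higher and none lower, with a median of 1.26. YPEL2 had the largest difference in the list, 3.08 ± 0.30, with 5.23 and 4.61 CPM in coculture 1 and 2, 0.329 to 0.819 CPM in coculture 3 to 6, and 2.01 CPM in control 1 against 0.412 to 0.618 CPM in control 2 to 4. PIK3IP1, an inhibitor of phosphoinositide 3-kinase, differed by 2.53 ± 0.29, and ARRDC3, an arrestin-like adaptor of receptor breakdown, by 2.03 ± 0.18. TXNIP, an inhibitor of thioredoxin and glucose uptake, differed by 1.33 ± 0.16, the insulin receptor INSR by 1.30 ± 0.19, and the transcriptional repressor HBP1 by 1.16 ± 0.10 (log2, SE).

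Genes of hypoxia and glycolysis set coculture 1 and 2 apart, and left control 1 with the other controls. Of the 32 genes compared, 11 were higher in coculture 1 and 2 and none lower, against 6.83% and 4.02% of all genes. The list median was 0.71. The median within controls was -0.04, with 14 genes positive and 18 negative. DDIT4, an inhibitor of mTORC1 that low oxygen and energy stress raise, stood at 1068 and 1019 CPM in coculture 1 and 2, and at 68.8, 86.2, 132 and 143 CPM in coculture 3 to 6. Control 1 held 205 CPM and the other controls 114, 128 and 141 CPM. The difference for coculture 1 and 2 was 3.28 ± 0.31, while coculture 5 at 132 CPM lay below coculture 6, which kept DDIT4 out of the calls between sets A and B. NDRG1 stood at 621 and 694 CPM against 172 to 204 CPM in coculture 3 to 6, and at 243 CPM in control 1 against 178 to 220 CPM. PFKFB4, a regulator of glycolytic flux, differed by 2.17 ± 0.11, MXI1, an antagonist of MYC, by 1.99 ± 0.12, the mitophagy receptor BNIP3L by 1.57 ± 0.09, and PDK1, which holds pyruvate from the mitochondria, by 1.15 ± 0.12 (log2, SE). VEGFA and the glucose transporter SLC2A1 had smaller differences, 0.86 ± 0.14 and 0.67 ± 0.12, and were not called. Between sets A and B, NDRG1 and LOX, a collagen crosslinking enzyme, were the 2 genes called of the 32. Over all genes compared 1.07% were called higher there.

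MIR210HG, the host transcript of miR-210, had the largest difference among the genes shown, 3.50 ± 0.80 between the sets and 4.67 ± 0.26 for coculture 1 and 2 (log2, SE). It stood at 6.88 and 9.37 CPM in coculture 1 and 2, at 0.215 to 0.455 CPM in coculture 3 to 6, and at 0.79, 0.494, 0.17 and 0.203 CPM in control 1 to 4. Its promoter is shown with those of DDIT4, CCNG2 and LOX because all 4 were higher in coculture 1 and 2 and their sequence upstream of the start holds ACGTG, the core that hypoxia-inducible factors bind. Each line gives the 250 bases before the RefSeq start in GRCh38.p14, 5′ to 3′ on the gene's strand, with ACGTG on either strand (also as CACGT) in capitals, and overlapping matches run together.
MIR210HG chr11:568458-568707 (- strand): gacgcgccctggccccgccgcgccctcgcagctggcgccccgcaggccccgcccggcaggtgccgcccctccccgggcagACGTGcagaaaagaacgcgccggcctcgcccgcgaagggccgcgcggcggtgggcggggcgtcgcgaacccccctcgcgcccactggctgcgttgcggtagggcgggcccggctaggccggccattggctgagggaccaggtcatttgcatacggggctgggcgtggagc
DDIT4 chr10:72273674-72273923 (+ strand): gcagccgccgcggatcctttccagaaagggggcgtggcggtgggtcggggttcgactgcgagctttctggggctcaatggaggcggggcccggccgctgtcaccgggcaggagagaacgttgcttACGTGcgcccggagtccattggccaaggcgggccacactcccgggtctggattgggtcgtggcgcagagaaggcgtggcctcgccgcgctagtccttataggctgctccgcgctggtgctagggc
CCNG2 chr4:77156957-77157206 (+ strand): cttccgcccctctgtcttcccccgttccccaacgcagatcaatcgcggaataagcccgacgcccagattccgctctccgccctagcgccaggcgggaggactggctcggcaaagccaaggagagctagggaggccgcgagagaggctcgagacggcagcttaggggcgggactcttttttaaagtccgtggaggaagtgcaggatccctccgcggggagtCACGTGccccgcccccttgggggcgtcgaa
LOX chr5:122078260-122078509 (- strand): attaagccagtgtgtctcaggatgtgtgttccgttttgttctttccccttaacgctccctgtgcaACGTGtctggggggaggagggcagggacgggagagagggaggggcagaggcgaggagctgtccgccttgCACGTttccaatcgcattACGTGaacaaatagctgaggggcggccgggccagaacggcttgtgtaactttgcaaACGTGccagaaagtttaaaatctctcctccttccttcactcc
The letters ACGTG are common. Over windows from 250 bases before to 50 after the start, 21.2% of 664 genes higher in coculture 1 and 2 with a RefSeq promoter held them on either strand, against 26.5% of 10459 genes compared. For genes higher in set A the share was 20.2% of 109, for genes lower in coculture 1 and 2 30.6% of 291, and for all 27305 RefSeq promoters 21.6%. CACGTG, which contains ACGTG and is bound by MYC and related factors, was in 6.63% of the genes higher in coculture 1 and 2 and in 10.1% of genes compared. TGTTTAC, the forkhead core, was in 2.86% and 2.32%, and TGATGCAA, an ATF4 element, in 0.904% and 0.468%. A match to these letters is a description of the sequence only.

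Amino acid synthesis genes that answer to ATF4 had the same shape. Of 35 genes compared, 7 were higher in coculture 1 and 2 and none lower, against 6.83% and 4.02% of all genes. The list median was 0.54, and none was called between sets A and B (median 0.28). PCK2, which makes phosphoenolpyruvate in mitochondria, stood at 271 and 256 CPM against 44.9 to 54.1 CPM in coculture 3 to 6. In controls it was at 90.9 and 81.3 CPM in control 1 and 2 and at 62.4 and 66.5 CPM in control 3 and 4, so here control 1 and 2 were a pair across the set border. ASNS, asparagine synthetase, stood at 170 and 203 CPM against 50.1 to 55.7 CPM, and at 115, 91.9, 68 and 72.2 CPM in control 1 to 4. The serine synthesis enzymes PHGDH and PSAT1 differed by 1.12 ± 0.07 and 1.03 ± 0.07, and the cysteine enzyme CTH by 1.5 ± 0.1 (log2, SE). ATF4 itself and its target DDIT3, a stress-induced transcription factor, differed by 0.07 ± 0.06 and 0.14 ± 0.14. ATF4 is known to be controlled mostly at translation, which these counts do not measure.

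Ribosome biogenesis was the counterpart at the lower end. All 29 genes of the list had a negative difference between sets A and B, with a median of -0.50 and, within controls, of -0.38 with 26 of 29 negative. None reached the 2-fold call, although 16 of the 29 had every set A library below every set B library in both conditions at any fold, as did 6.92% of all genes compared. Nothing is read from this count. In coculture 1 and 2, 7 were called lower and none higher, against 4.02% and 6.83% of all genes, with a list median of -0.74. NCL, the nucleolar protein nucleolin, stood at 568, 664 and 1074 CPM in coculture 1, 2 and 5, at 1464, 1433 and 1222 CPM in coculture 3, 4 and 6, at 940 CPM in control 1, and at 1098 to 1222 CPM in the other controls. NOP58, a core protein of the small nucleolar particles that methylate ribosomal RNA, stood at 35.6, 37.7 and 61.8 CPM against 93.5, 103 and 79.6 CPM, and at 50.8 CPM against 61.5 to 73.5 CPM. In both genes the sets were apart in each condition, with coculture 5 and coculture 6 neighbours. UTP20, a part of the small subunit processome, differed by -1.64 ± 0.10 in coculture 1 and 2, but control 1 at 71.2 CPM lay among the other controls (68.6 to 79.7 CPM). MYC, the transcription factor that drives this programme, differed by -0.32 ± 0.10 between the sets and by -0.36 ± 0.07 in coculture 1 and 2, with control 1 at 208 CPM below the 299 to 318 CPM of the other controls. Genes of the cytosolic ribosomal proteins went opposite ways. Their median over 76 genes was -0.22 in control 1 (75 negative) and -0.15 in control 2, but 0.09 and 0.21 in coculture 1 and 2. The 44 nuclear genes of oxidative phosphorylation likewise had -0.17 in control 1 (43 negative), and 0.10 and 0.13 in coculture 1 and 2.

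Of the 81 genes lower in set A, 4 had a mean of at least 5 CPM in set B: 2 uncharacterised loci, and ESF1 and DNAJC2, both tied to ribosomes. ESF1, a nucleolar protein of pre-ribosomal RNA processing, stood at 6.47, 7.66 and 14.1 CPM in coculture 1, 2 and 5, at 27.3, 29.1 and 18.3 CPM in coculture 3, 4 and 6, and at 14, 17.4, 20 and 21.1 CPM in control 1 to 4. DNAJC2, a chaperone that sits on ribosomes, stood at 3.88, 4.42 and 11.5 CPM against 20.1, 18.6 and 12.2 CPM, and at 9.63, 10.7, 14.1 and 14.3 CPM in control 1 to 4. In both, coculture 1 and 2 were lowest by far, and the remaining libraries of set A were lowest of their kind by a small margin.

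Splicing factors had a median of -0.31 over 31 genes between sets A and B, with 29 of 31 negative, and -0.51 in coculture 1 and 2, where SRSF6 (-1.29 ± 0.07) and RBM25 (-1.23 ± 0.20) were called lower. The heat shock list of 16 had a median of -0.34, with the chaperone HSPH1 lower in coculture 1 and 2 by -1.04 ± 0.16. Mitotic genes were lower by less. The G2/M list of 36 had a median of -0.24 between the sets and -0.33 in coculture 1 and 2. There 1 gene, the mitotic kinesin CENPE, was called at -1.41 ± 0.43. Over all genes compared 4.02% were called lower in coculture 1 and 2, so nothing is read from the calls in these lists. The proliferation marker MKI67 stood at 326 and 356 CPM in coculture 1 and 2 and at 527 to 622 CPM in coculture 3 to 6, but control 1 (624 CPM) and control 2 (637 CPM) were above control 3 and 4 (503 and 492 CPM). The 34 DNA replication genes had a median of -0.20 between sets A and B, and 31 of 34 were negative.

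**Figure D4:**
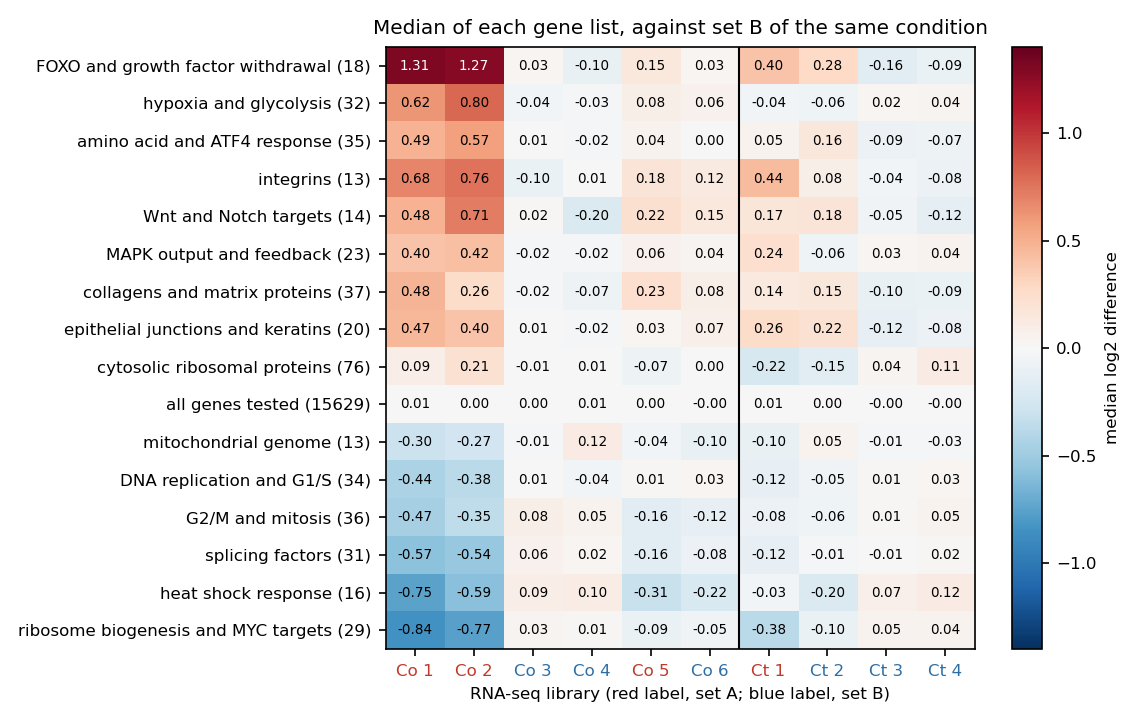
Heat map of the median log2 difference of each gene list (rows, number of genes in brackets) in each RNA-seq library (columns, label colour by set) from set B of the same condition, with red higher and blue lower. FOXO and growth factor withdrawal genes are at 1.31, 1.27, 0.15 and 0.40 in coculture 1, 2 and 5 and control 1, and at 0.28 in control 2 of set B, and ribosome biogenesis genes are at -0.84, -0.77, -0.09 and -0.38 in the same set A libraries.

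Of the surface and matrix genes, all 13 integrins compared had a positive difference between sets A and B, with a median of 0.49, although none was called. Within controls 12 of 13 were positive, with a median of 0.44. ITGB3, the β3 subunit that binds fibronectin and vitronectin, stood at 731, 716 and 568 CPM in coculture 1, 2 and 5 against 321, 277 and 421 CPM in coculture 3, 4 and 6, and at 874 CPM in control 1 against 637, 460 and 399 CPM. JUP, the junction protein plakoglobin, stood at 78.3, 60.9 and 29.5 CPM against 19.2, 16.3 and 26.1 CPM, and at 35.5 CPM in control 1 against 28.6, 19.9 and 23.6 CPM. In both genes control 2 came next after control 1, and coculture 6 next after coculture 5. BGN, the small proteoglycan biglycan, stood at 10.5 and 5.87 CPM against 0.927 to 1.72 CPM in coculture 3 to 6 and 2.67 to 4.72 CPM in controls. Of 37 collagens and matrix proteins 1 was called between the sets, COL1A1, against 1.07% of all genes called higher. The size of its difference rested on 1 library. COL1A1, the α1 chain of type I collagen, stood at 67 CPM in coculture 1, 5.73 CPM in coculture 2, 1.59 to 4.22 CPM in coculture 3 to 6 and 1.99 to 3.97 CPM in controls. Its difference was 2.78 ± 0.83 between the sets and 1.02 without coculture 1, where it still met the rule.

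Markers of other cell types moved with the sets in places, and their part in the differences was not tested. Counted over all 10 members, fibroblast markers summed to 154 CPM in coculture 1, 9.9 CPM in coculture 2 and 3.45 to 7.22 CPM in the other libraries. Coculture 1 held 50.8 CPM of COL1A2 (the α2 chain of type I collagen), 7.82 CPM of COL3A1 (type III collagen), 8.9 CPM of the proteoglycan DCN and 3.85 CPM of the matrix protein POSTN, none of which passed the filter. DCN and POSTN were at 0 in all 9 other libraries, coculture 2 and 5 and control 1 included, and COL1A2 was at or under 0.303 CPM in them. Over whole lists, pan-leukocyte markers summed to 718 and 681 CPM in coculture 1 and 2, 476 to 528 CPM in coculture 3 to 6 and 447 to 504 CPM in controls. RAC2, a small GTPase that was the largest part of this sum, stood at 151 to 187 CPM in controls, which are labelled untreated. The monocyte and macrophage list summed to 172 and 187 CPM in coculture 1 and 2, 110 to 144 CPM in coculture 3 to 6, and 80.4 to 102 CPM in controls, with CD68 the largest part. Genes that were near 0 in controls did not all share that order. GPR84, which is not on these lists, did, at 3.97 and 3.12 CPM in coculture 1 and 2 and 0.43 to 0.903 CPM in coculture 3 to 6. The markers LYZ and CYBB did not. LYZ, lysozyme of myeloid cells, stood at 15.4, 9.79 and 13.7 CPM in coculture 1, 2 and 5 and at 14.8, 14 and 15.8 CPM in coculture 3, 4 and 6, so the sets overlapped. CYBB, the phagocyte oxidase, stood at 3.97, 2.53 and 6.01 CPM against 6.27, 7.18 and 8.84 CPM. Of 24 neutrophil and PMN-MDSC markers 3 passed the filter, and 9 were at 0 in every library, among them ELANE, CXCR1 and CXCR2. The whole list summed to 6.17 to 13.8 CPM, mostly FPR1, and the common leukocyte antigen PTPRC did not pass the filter.

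The difference between coculture and control can be tested, because its groups come from the labels. In it, RNA of the added PMN-MDSCs and a response of TPC-1 cannot be told apart. By edgeR's quasi-likelihood test with Benjamini-Hochberg adjustment at 0.05, 178 genes rose with coculture (1.14% of genes compared) and 29 fell (0.186%). Of these 207 none was among the genes called higher in set A and 1, PILRA, an inhibitory receptor of myeloid cells, was among those lower. Over all genes compared these calls took 1.07% and 0.518%, and genes near 0 in every control can hardly meet the rule within controls. By the rule of coculture 1 and 2, 7 of the 207 were higher and 16 lower, against 6.83% and 4.02% of all genes compared. Nothing is read from these counts. The size of the set difference was at least 2-fold in 18 of the 207. With the set as a covariate 248 genes were called, 203 of them shared with the 207. With set B libraries alone 440 were called and 162 were shared, and with coculture 1 and 2 left out 322 and 185. Coculture 5 and control 1 of set A remain in the last of these comparisons. By contrast, 1509 genes had an unadjusted p under 0.05. Without control 3 or control 4 the count was 119 or 116. Of the marker genes compared, 9 of 13 pan-leukocyte, 5 of 6 monocyte and macrophage and 2 of 3 neutrophil and PMN-MDSC markers rose with coculture. Over all genes compared 1.14% rose. The filter went by condition, so markers near 0 in controls could pass it through the cocultures alone.

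Within the coculture response, some inflammatory genes differed between the states. CXCL5, a neutrophil-attracting chemokine, stood at 2.04, 0.905 and 2.6 CPM in coculture 1, 2 and 5 and at 9.25, 2.95 and 9.63 CPM in coculture 3, 4 and 6. In controls it was at 0 in 3 libraries and at 0.0247 CPM in control 2, and it rose with coculture (edgeR adjusted p = 0.00129). All 3 set A cocultures were below all 3 set B cocultures. CXCL3, a chemokine of the same kind, stood at 3.6, 3.22 and 6.95 CPM against 6.7, 19.2 and 10.7 CPM, where coculture 5 passed coculture 3 and the sets overlapped, and at 0.919 to 1.54 CPM in controls. It rose by 2.63 ± 0.49 (log2, SE; edgeR adjusted p = 0.0175). ELF3, an epithelial transcription factor of inflammation, went the other way: it stood at 27.4 and 18.1 CPM in coculture 1 and 2, at 2.43 to 6.12 CPM in coculture 3 to 6, and at 0.34 to 1.11 CPM in controls, and rose by 4.07 ± 0.76 (edgeR adjusted p = 0.0174). GPR84, a receptor for medium-chain fatty acids, stood at 3.97 and 3.12 CPM in coculture 1 and 2, at 0.43 to 0.903 CPM in coculture 3 to 6, and at 0 to 0.113 CPM in controls (edgeR adjusted p = 0.0273). FBXO32, a ubiquitin ligase and FOXO target, was at 141 and 145 CPM, 48.7 to 70.1 CPM and 22.5 to 40.6 CPM in the same groups, and rose by 1.54 ± 0.34 (edgeR adjusted p = 0.0476). NFKBIA, the inhibitor that NF-κB raises to end its own signal, was at 96.5 to 182 CPM in all cocultures and 29.7 to 54.8 CPM in controls, and rose by 1.67 ± 0.22 (edgeR adjusted p = 0.00144). Of 31 NF-κB genes compared 20 rose with coculture, as did 1.14% of all genes compared. None of the 31 was called between sets A and B, where 1.07% of all genes were higher and 0.518% lower, so nothing is read from that. Between the sets 22 of the 31 had a negative difference, with a list median of -0.10. In coculture 1 and 2, 3 of them were called lower and none higher, against 4.02% and 6.83% of all genes.

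In miRNA-seq the rule between sets A and B called 1 miRNA higher (0.125%) and 20 lower (2.51%), and that of coculture 1 and 2 called 14 higher (1.76%) and 44 lower (5.52%). Without coculture 5 the first count was 38 in all, and without coculture 1 the second was 102. The mature sequences of those the results turn on are shown 5′ to 3′ as DNA letters, with the seed (bases 2 to 8), which pairs with targets, in capitals. Of 21 miRNAs named by the rule 20 were in the RefSeq table and had the same sequence there.
miR-210-3p: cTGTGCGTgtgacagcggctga
miR-210-5p: aGCCCCTGcccaccgcacactg
miR-1260a: aTCCCACCtctgccacca
miR-1260b: aTCCCACCactgccaccat
miR-4485-3p: tAACGGCCgcggtaccctaa
miR-3659: tGAGTGTTgtctacgagggca
miR-3168: gAGTTCTAcagtcagac
miR-4463: gAGACTGGggtggggcc
miR-934: tGTCTACTactggagacactgg
miR-223-3p: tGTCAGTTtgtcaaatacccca
Only miR-1260a and miR-1260b of this group share a seed, TCCCACC. The arms of miR-210 come from 1 hairpin on chromosome 11 and have different seeds.

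The 2 arms of miR-210, the miRNA best known as a target of hypoxia-inducible factors, followed their host in coculture 1 and 2 and not in control 1. miR-210-3p stood at 509 and 696 CPM in coculture 1 and 2, at 159, 146, 153 and 199 CPM in coculture 3 to 6, and at 217, 160, 337 and 239 CPM in control 1 to 4. Both were above all other cocultures, by 1.87 ± 0.17 (log2, SE), and control 3 rather than control 1 was highest among controls. miR-210-5p, the scarcer arm, stood at 9.57 and 17.4 CPM against 1.28 to 2.86 CPM, a difference of 2.78 ± 0.35. The host transcript differed by 4.67 ± 0.26 in the same libraries.

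MIR17HG, the host of the miR-17-92 cluster and a MYC target, had a larger difference than any of its miRNAs. The host stood at 0.734 and 0.779 CPM in coculture 1 and 2, at 7.3, 6.87, 2.98 and 4.07 CPM in coculture 3 to 6, and at 2.07, 2.77, 2.72 and 2.87 CPM in control 1 to 4, a difference of -1.46 ± 0.42 between sets and -2.81 ± 0.41 for coculture 1 and 2. Over the mature arms of the cluster the difference for coculture 1 and 2 ran from -0.65 (miR-20a-3p) to 0.15 (miR-20a-5p), and none was called. The arms miR-18a-5p (160 and 171 CPM against 187 to 201 CPM), miR-18a-3p (67.9 and 68.6 CPM against 88 to 99 CPM) and miR-19a-3p (200 and 219 CPM against 227 to 361 CPM) were lower in both coculture 1 and 2 than in all 4 others, as the host was, by -0.23, -0.42 and -0.52. miR-17-5p stood at 5324 and 5736 CPM in coculture 1 and 2 and at 4629 to 5839 CPM in coculture 3 to 6, and overlapped. miR-92a-3p likewise stood at 15158 and 13088 CPM against 11844 to 15705 CPM.

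miR-4485-3p, whose sequence is also known from mitochondrial ribosomal RNA, was the 1 miRNA higher in set A. It stood at 9.57, 9.21 and 13.8 CPM in coculture 1, 2 and 5, at 2.67, 4.19 and 8.82 CPM in coculture 3, 4 and 6, at 16.9 CPM in control 1, and at 7.55, 4.3 and 8.93 CPM in the other controls. Unlike the genes above, it was highest in coculture 5 and control 1, and it differed by 0.37 ± 0.59 for coculture 1 and 2. RNR2 in the RNA-seq table, taken here as the mitochondrial large ribosomal RNA by its symbol alone, went the other way, at 14.4 and 15.5 CPM in coculture 1 and 2, 46.5 to 60.9 CPM in coculture 3 to 6, and 31.4 CPM in control 1 against 37.9 to 51.3 CPM in the other controls.

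Among the miRNAs lower in set A, miR-3659 stood at 42.4, 39.4 and 114 CPM in coculture 1, 2 and 5, at 132, 122 and 123 CPM in coculture 3, 4 and 6, at 62.3 CPM in control 1, and at 116, 255 and 200 CPM in the other controls. Coculture 5 was again close to set B, and the difference was -1.16 ± 0.35 (log2, SE). miR-3168 (-1.35 ± 0.40), miR-4463 (-1.13 ± 0.27) and miR-1273c (-1.01 ± 0.24) were of the same kind. miR-934 was lower in coculture 1 and 2 by -2.43 ± 0.28, with 2.34 and 2.55 CPM against 11.2 to 14.9 CPM, and control 1 held 5.89 CPM against 10.7 to 17.7 CPM. Most of the 20 miRNAs lower in set A were scarcer than these, with a median level of 3.36 CPM against 11.6 CPM over all compared. The share of miRNAs with a registry number of 1000 or above, which are mostly the later and scarcer entries, was 80% among the 20 lower in set A and 40.4% among all compared. The median difference was higher with abundance, from -0.20 over 160 miRNAs under 3 CPM to 0.23 over 69 at 1000 CPM or above. The share of counts outside the 300 most abundant miRNAs was 0.357% to 0.397% in set A and 0.434% to 0.54% in set B, and the normalization factors were 0.864 to 0.958 and 1.02 to 1.11. Neither pair of ranges overlapped, and their part in the miRNA differences was not tested.

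Some abundant families lay on the other side by small amounts, and others did not. let-7, the family of 20 arms that represses growth genes, had a median of 0.36, with 17 of 20 arms positive, and let-7a-5p stood at 40972, 33117 and 38326 CPM in coculture 1, 2 and 5, at 29291, 30403 and 25327 CPM in coculture 3, 4 and 6, at 40736 CPM in control 1, and at 19339 to 27826 CPM in the other controls. miR-21-5p, the most abundant miRNA, stood at 490310, 427390 and 452790 CPM against 393360, 388970 and 409200 CPM, and at 446930 CPM in control 1 against 361940 to 370990 CPM. In both, every set A library was above every set B library after scaling, by 0.52 ± 0.12 and 0.23 ± 0.07. As a share of unscaled counts, miR-21-5p took 43.1%, 40.9% and 42.5% in coculture 1, 2 and 5. It took 40.1%, 41.1% and 43.2% in coculture 3, 4 and 6, so the sets overlapped. Control 1, at 38.6%, was below the 39.1% to 40.6% of the other controls. The same normalization factors enter the let-7a-5p values. The miR-17-92 cluster and its paralogs had a median of -0.06 with 14 of 20 arms negative, and the miR-29 family of -0.25 with 5 of 7 negative. miR-1260a and miR-1260b, which share their seed, differed by 1.37 ± 0.17 and 1.06 ± 0.20 for coculture 1 and 2, and miR-1260b by 0.60 without coculture 2.

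miR-223-3p, the most myeloid of these miRNAs, was lower in set A by -1.30 ± 0.89, and that value turned on control 4. It stood at 37.9, 34.9 and 41.1 CPM in coculture 1, 2 and 5, at 59.1, 68.4 and 82.3 CPM in coculture 3, 4 and 6, at 3.14 to 3.18 CPM in control 1 to 3, and at 54 CPM in control 4. Without control 4 the difference was -0.78 ± 0.18. Control 4 stood apart over the whole lists: its median log2 difference from set B of the controls was 2.69 for 5 myeloid and lymphoid miRNAs, against -1.24 to -1.36 in control 1 to 3. For 7 erythroid and platelet miRNAs it was 2.46, against -0.999 to -1.43. In RNA-seq, LYZ was at 0.203 CPM in control 4 and at 0.0427 to 0.0494 CPM in the other controls. In these libraries 3 counts equal 0.0632 to 0.0758 CPM, so control 4 was above that level and the other controls below it.

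**Figure D5:**
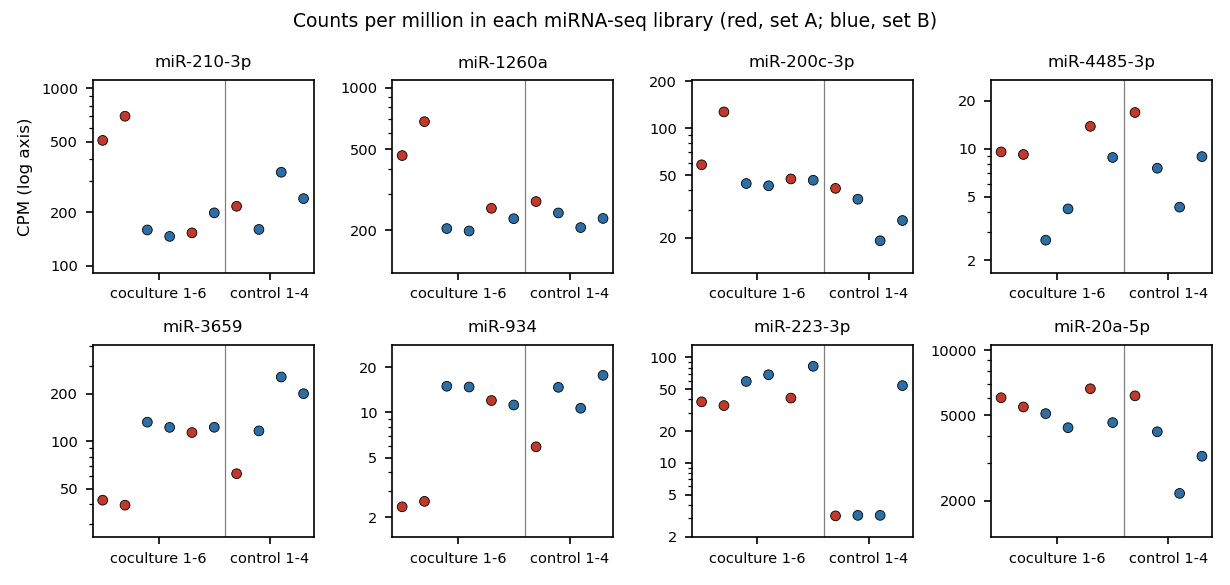
Level of selected miRNAs in every library, in CPM on a log axis, by condition and set. Coculture 1 and 2 stand above the others in miR-210-3p, at 509 and 696 CPM, and control 4 stands at 54 CPM in miR-223-3p, near the cocultures.

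For the coculture comparison of miRNAs, edgeR's quasi-likelihood test with Benjamini-Hochberg adjustment called 9 higher (1.13%) and 1 lower (0.125%), with 91 at an unadjusted p under 0.05. With the set as a covariate 11 were called and 9 were shared with the 10. Without coculture 3 or 6 the count was 5, and without control 1 or 2 it was 6. miR-146a-3p, an arm of the NF-κB target miR-146a, stood at 204 and 118 CPM in coculture 1 and 2, 48.2 to 89.4 CPM in coculture 3 to 6 and 16.5 to 21.9 CPM in controls, and rose by 2.45 ± 0.36 (edgeR adjusted p = 0.00298). It was the 1 called miRNA that was also called higher in coculture 1 and 2, where both libraries lay above all other cocultures and the fitted difference was 1.18 ± 0.26 (log2, SE), or 0.70 without coculture 1.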

How the data were processed

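The deposited tables held raw counts per gene (54261 features) and per mature miRNA (2656), which the authors made from RNA-seq and miRNA-seq reads. The submitters' processing notes name HISAT2 2.0.4, BWA and GRCh38.p10, and the counting tool and its strand setting were not found in the labels, so overlapping transcripts on opposite strands cannot be told apart. Columns were matched to libraries by title. Genes and miRNAs were fitted apart with edgeR 4.0.16 (TMM scaling, filterByExpr by condition, robust quasi-likelihood), limma 3.58.1 and R 4.3.3. Set A minus set B was fitted with condition as a covariate, and coculture 1 and 2 against coculture 3 to 6 among cocultures. Neither was tested, since measured values chose the libraries. Only coculture minus control was tested, at a Benjamini-Hochberg adjusted p under 0.05. Calls between sets used log2 CPM with a prior count of 2. Genes named were those past the call rule with a mean of at least 5 CPM (miRNAs 10 CPM) in the higher set and the largest differences, up to 4 per list, the 3 most abundant of each marker list, and the coculture-called genes with the largest set difference. The remaining genes in the text were picked from the lists, as members that carry the list's role. The sets, members and lists were chosen with earlier results of these data known. List entries matched for 1099 of 1115 genes, 111 of 111 markers and 172 of 172 miRNAs. A value of 3 counts equals 0.0632 to 0.0758 CPM in RNA-seq and 0.534 to 0.715 CPM in miRNA-seq. Both fits were tested on simulated data. Promoters and miRNA positions are from RefSeq, GRCh38.p14. Alternatives were other scaling (RLE), no filter, other folds, DESeq2 1.42.0, the set as a covariate or set B alone, a replicate block, and leaving out each library.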

Additional observations from a re-analysis of the deposited data

Results flagged for a closer look

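Single libraries lay far from the rest of their condition in 17 of 170 groups of values examined by Dixon's ratio on log2 CPM. Many of the features were chosen on these same values, by a rule that sets control 1 beyond the other controls. The count is therefore not set against chance. In CPM, control 1 stood apart in PTCH1 (5 against 1.78 to 1.85), KLF9 (5.55 against 2.03 to 2.17), MIR17HG (2.07 against 2.72 to 2.87), the uncharacterised LOC107986031 (3.05 against 5.64 to 6.3), CXCL3 (0.919 against 1.43 to 1.54) and miR-329-3p (0.589 against 2.81 to 3.28). It was also apart in SRGN, a proteoglycan core protein, by a narrow margin (151 against 147). The myeloid genes ITGAM (0 in control 1 against 0.0226 to 0.0247) and S100A9 (0.0214 in control 1 against 0) were at or under the level of 3 counts in all controls, as was CXCL5 (0.0247 in control 2 against 0).

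Control 2 held 61 CPM of RND3, a small GTPase, against 29.3 to 31.5 CPM in the other controls. Control 4 stood apart in miR-223-3p (54 CPM against 3.14 to 3.18 CPM) and in LYZ (0.203 CPM against 0.0427 to 0.0494 CPM).

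Among cocultures, coculture 1 stood apart in COL1A1 (67 CPM against 1.59 to 5.73 CPM) and miR-4750-5p (17 CPM against 3.56 to 5.49 CPM). Coculture 2 stood apart in LYZ (9.79 CPM against 13.7 to 15.8 CPM) and miR-4456 (90.2 CPM against 445 to 771 CPM). CYBB had a log2 difference between sets A and B of -0.9 in cocultures and of 1.08 in controls. The controls were at 0.0226 to 0.15 CPM of CYBB, and this contrast of directions was not tested.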

How the results depend on the processing

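Calls between the sets depended on where the rule was drawn. For genes between sets A and B, 249 became 472 with no filter, 691 at 1.5-fold and 682 by fold alone (no condition on ranges), and 188 to 694 when 1 library was left out. Moving coculture 5 to set B gave 650, and coculture 5 with control 1 alone as set A gave 133. Both of these, like leaving out coculture 1 and 2 together below, were added after the data were seen. For coculture 1 and 2, 1696 genes became 3150 with no filter, 4118 at 1.5-fold, and 1641 to 1995 without 1 library. For miRNAs, 21 between the sets became 68 with no filter, 53 at 1.5-fold, 40 by fold alone, 32 with coculture 5 moved, and 20 to 38 without 1 library. The 58 of coculture 1 and 2 became 240 with no filter, 115 at 1.5-fold, and 56 to 102 without 1 library. For coculture minus control, 207 genes became 439 with DESeq2, 440 with set B alone, 322 without coculture 1 and 2, and 116 to 227 without 1 library, and 10 miRNAs became 16 with DESeq2, 16 with no filter, and 5 to 12 without 1 library. The cause of these shifts was not tested.

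Of 85 named features, all had a difference between the sets that moved by less than the spread between libraries, under RLE scaling, with no filter and with coculture 5 moved. With coculture 5 and control 1 alone as set A, 39 moved by more and 45 did not, and 1 was not compared. CD74 was no longer past the threshold with set B alone. Same-numbered coculture and control libraries did not share deviations throughout (r = 0.35, -0.083, 0.201 and 0.137 in RNA-seq, 0.366, -0.034, 0.208 and 0.365 in miRNA-seq). Not every library correlated best with its own number. The labels do not state whether the numbers pair the libraries, and these correlations cannot decide it. With the replicate block 110 genes were called, 86 of them among the 207, and 9 miRNAs, and CCL1, GPR84, CXCL3 and IL7R were not past the threshold. Set A holds 1 control, so differences within controls have no spread of their own, and genes under about 1 CPM rest on few counts.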

Other observations

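Type I interferon response genes varied among the cocultures in an order that did not follow the sets. The list's median log2 difference from set B of the same condition was 0.39 in coculture 6, 0.17 in coculture 4 and 0.12 in coculture 1, and -0.47, -0.56 and -0.57 in coculture 2, 3 and 5. IFI6, an interferon-induced mitochondrial protein, stood at 44.9, 36.7 and 93.1 CPM in coculture 1, 4 and 6, at 19.5, 10.7 and 13.3 CPM in coculture 2, 3 and 5, and at 8.9 to 10.7 CPM in controls. OAS1, a sensor of double-stranded RNA, stood at 14.3, 9.08 and 19.3 CPM and at 4.72, 2.84 and 3.92 CPM in the same libraries. ISG15, a ubiquitin-like modifier, stood at 37.3, 36.5 and 74.3 CPM and at 25.5, 16.5 and 27.6 CPM. The controls lay close together, with list medians of -0.10 to 0.10. Within each pair of cocultures that were nearest as whole transcriptomes (1 and 2, 3 and 4, 5 and 6), the list medians thus lay on opposite sides of the level of set B. These genes were picked after their values were seen, and no group of samples was tested on them.

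CD74, the invariant chain of class II antigen presentation, was likewise higher in coculture 1, 4 and 6 than in the other 3, at 2.87, 9.27 and 3.76 CPM and at 1.87, 0.978 and 0.985 CPM. CYBB was not, with 3.97 and 2.53 CPM in coculture 1 and 2 and 6.01 to 8.84 CPM in the other 4.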
